A study of Mus musculus with 11 samples.

Results

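The comparison set a single library against another: TKO_602 against TKO_FL, both from the mouse embryonic stem cell line J1 at day 0. Both carried the genotype called TKO, spelled DNMT TKO elsewhere in the labels, and the design text of the series joins each suffix to TKO with a plus sign. The labels spell out neither suffix, nor whether a genotype was a single clone. Cells of both genotypes grew on mitotically inactivated fibroblast feeders in medium with serum and LIF, and poly(A)-selected RNA was sequenced. Of 25239 genes in the count table, 13683 had at least 1 CPM (reads scaled to a common library size, with TMM factors that correct for library composition) in one of both libraries and were compared. These are 2 of the 11 samples of the series. The library of the parent genotype, TKO, is given beside them for reference. With 1 library per genotype there is no replicate check and no test, and each difference lies between libraries.

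DNMT1 copies methylation onto the new DNA strand at replication, whereas DNMT3A and DNMT3B place methyl groups on unmethylated CpG sites. Mouse embryonic stem cells tolerate the loss of these enzymes, but methylation holds down germline genes, imprinted alleles, retroelements and lineage genes in them. In serum with LIF such cells move between a naive state, held by LIF and BMP signals, and states primed for differentiation, pushed by FGF and Nodal signals.

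Dnmt1 (mm10 chromosome 9, 20907206 to 20959888, minus strand) is the gene the pair of genotypes has in common at a high level. Dnmt1 stood at 159 CPM in TKO, 3364 CPM in TKO_FL and 2444 CPM in TKO_602. Both TKO_FL and TKO_602 were thus high in Dnmt1, with TKO_602 at a log2 fold of -0.46 against TKO_FL (exact 95% binomial interval of the log2 ratio -0.48 to -0.44). Here and below a log2 fold is log2 of the ratio of CPM + 1, which understates the folds of low genes, and intervals are of the ratio without the added 1 and cover counting error only. Dnmt3b had 71.7, 34.0 and 11.9 CPM in TKO, TKO_FL and TKO_602 (log2 fold TKO_602 against TKO_FL -1.44, interval -1.75 to -1.27). Dnmt3l, the inactive partner of the de novo enzymes, was within 2-fold at 408 CPM in TKO_FL and 226 in TKO_602. Apobec1, a cytidine deaminase of RNA editing, was the only other gene of this list at least 2-fold apart, with 6.29 CPM in TKO_FL and 18.5 in TKO_602. Dnmt3a (log2 fold -0.37), Uhrf1 (-0.14), Uhrf2 (0.67), the helicase gene Hells (-0.57), Gadd45a (0.19), Tet1 (0.14), Tet2 (-0.17) and Tet3 (0.20) were within 2-fold.

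The TKO_FL library held 19573689 reads on genes and the TKO_602 library 43158441, 2.20 times as many. Per the file headers the TKO_602 alignment lay in another folder than the others, so genotype, culture and library handling cannot be told apart anywhere below. Stem cell markers were present in both: the summed level of 6 defining genes (Pou5f1, Sox2, Nanog, Zfp42, Utf1 and Sall4) was 4289 CPM in TKO_FL and 3313 CPM in TKO_602, and the lowest of them stood at 234 and 223 CPM. Of 10 feeder fibroblast markers, 9 passed the filter, and their sum over all 10 was 255 CPM in TKO_FL, 407 CPM in TKO_602 and 434 CPM in TKO. Col1a1 (79.0 and 172 CPM) and Pdgfrb (6.60 and 15.1 CPM) were at least 2-fold higher in TKO_602 while Twist2 (3.22 and 0.580 CPM) was at least 2-fold lower, and Thy1 (30.7 and 17.1 CPM) and Prrx1 (9.46 and 7.34 CPM) were lower within 2-fold. Twist2 reached 1 CPM in TKO_FL alone and so had to be lower. The 6 primitive endoderm markers summed to 29.2 CPM in TKO_FL, 46.5 in TKO_602 and 198 in TKO. Trophoblast markers summed to 7.07 and 17.9 CPM, with Cdx2 at 0 reads in TKO_602 and Elf5 at 0 in TKO_FL, and most of that difference was Krt7 alone (1.98 and 11 CPM). Among blood and endothelial markers Hba-a1 was at 0 reads in both, and the monocyte and macrophage gene Lyz2 had 16.3 and 45.8 CPM. In such bulk samples, fewer cells of a type and less RNA per cell cannot be told apart.

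Most genes were alike in both libraries. Of the 13683 genes, 924 had a level in TKO_602 that was 2-fold or more above TKO_FL (6.75% of those compared) and 667 at least 2-fold lower (4.87%), together 1591 (11.6%). The median log2 fold was 0.03, with quartiles at -0.35 and 0.44. At least 4-fold apart were 46 higher and 55 lower genes, and at least 8-fold apart 4 and 4. For 0 of the 1591 genes did the counting interval span a ratio of 1, which the pseudocount and the 1 CPM filter made near certain at these depths. The threshold fell in a dense part of the distribution, since 848 genes lay within 0.1 of it on the log2 scale and 365 of those were beyond it. Folds leaned with level: when genes were ranked by mean CPM and cut into 10 equal groups, the median log2 fold was highest in group 4 (0.19) and lowest in group 10, the most abundant genes (-0.15). The share of genes at least 2-fold higher was 12.8% in group 3 and 1.24% in group 10. Lists of weakly and strongly expressed genes below are read beside these shares.

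**Figure D1:**
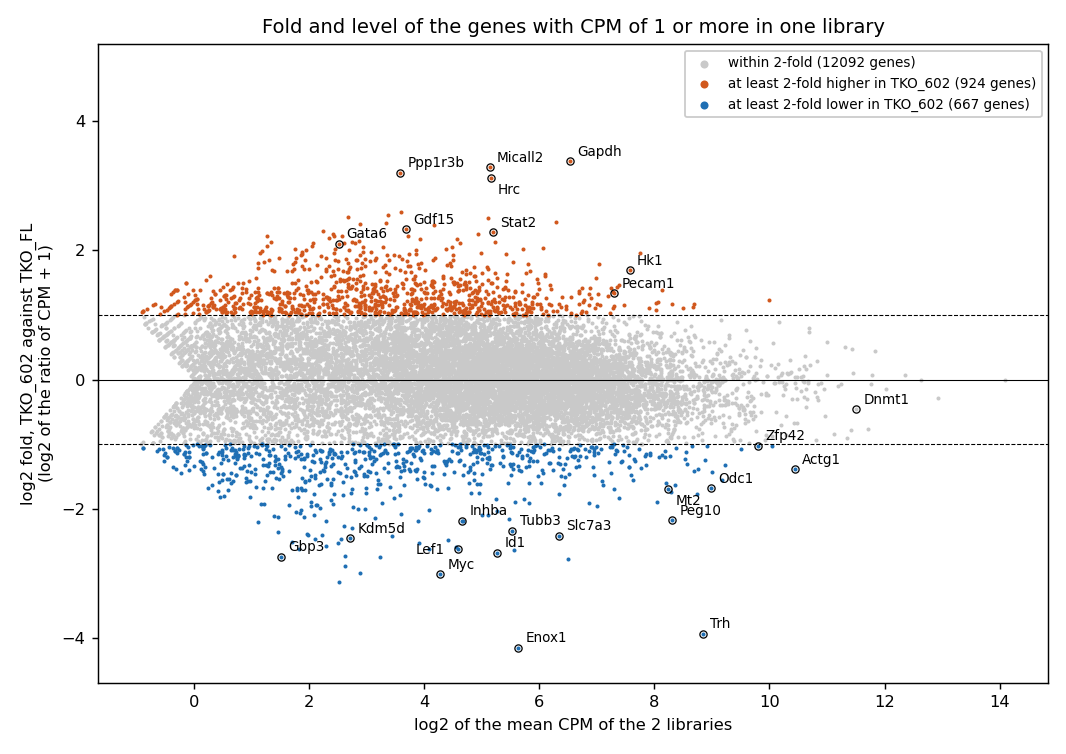
Each point is 1 of 13683 genes, with the log2 of its mean CPM over TKO_FL and TKO_602 on the x axis and its log2 fold (TKO_602 against TKO_FL, CPM + 1) on the y axis. Orange and blue points are the 924 higher and 667 lower genes, dashed lines mark 2-fold, and Enox1 and Trh lie lowest while Dnmt1 lies within the lines.

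The genes farthest apart on the low side were Enox1 and Trh. Enox1 (chromosome 14, 77156763 to 77721763), which encodes a cell-surface oxidase, had 131, 95.4 and 4.40 CPM in TKO, TKO_FL and TKO_602, a 21.7-fold lower level in TKO_602 (log2 fold -4.16, interval -4.75 to -4.14). Trh, the precursor of thyrotropin-releasing hormone (chromosome 6, 92242061 to 92244650), stood at 436, 861 and 55.1 CPM (log2 fold -3.94, interval -4.05 to -3.88). For both genes TKO_602 was far below either of the other libraries. Ina, a neuronal intermediate filament gene, had 159 CPM in TKO_FL and 22.2 in TKO_602. Msc, a bHLH repressor gene, had 11.2 and 0.379 CPM. Il1rl1, the receptor of interleukin 33, had 13.9 and 0.870 CPM, and the neuronal transcription factor gene Pou4f2 had 11.6 and 0.714 CPM. Hhip, a hedgehog-binding protein gene, stood at a log2 fold of -2.75, the serpin gene Serpinb9b at -2.73, the amino acid transporter gene Slc7a7 at -2.64 and the guidance cue gene Ntn1 at -2.63. The other genes among the 20 lowest were Myc, Id1, Lef1, Notum, Fgfr2, Irgm1 and the guanylate-binding genes Gbp2, Gbp2b, Gbp3 and Gbp4, described with their pathways below.

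On the high side Micall2, Ppp1r3b and Hrc followed Gapdh, whose level is uncertain. Hrc, a calcium-binding protein of the sarcoplasmic reticulum, had 1.21, 6.55 and 65.0 CPM in TKO, TKO_FL and TKO_602 (log2 fold 3.13, interval 2.95 to 3.70). Micall2, which takes part in the traffic of junction proteins, had 4.59, 5.72 and 64.9 CPM (log2 fold 3.29), and Ppp1r3b, a subunit that brings protein phosphatase 1 to glycogen, had 3.52, 1.56 and 22.6 CPM (log2 fold 3.20). In each of these genes TKO_602 was the highest of the 3 libraries. The cardiac myosin light chain gene Myl3 had 1.20 CPM in TKO_FL and 11.6 in TKO_602, the myosin heavy chain gene Myh7b 5.10 and 31.1 CPM, and the calcium channel subunit gene Cacng6 2.70 and 21.5 CPM. Atp1b2, a subunit of the sodium pump, had 23.6 and 133 CPM, and Ccng2, an atypical cyclin gene, 9.62 and 59.3 CPM. The remaining genes of the highest 20 were Ankrd44 (log2 fold 2.54), Gdpd5 (2.42), Pth1r (2.41), Gdf15 (2.33), Cd6 (2.30), Stat2 (2.28), Gstm3 (2.26), Klhdc7a (2.25), Shisal1 (2.23), the kinase inhibitor gene Camk2n1 (2.23), Phox2a (2.23) and Gapdh. Gapdh, a glycolytic enzyme gene, had the highest fold of all under the naming rule, with 11.3, 15.4 and 170 CPM in TKO, TKO_FL and TKO_602 (log2 fold 3.38), but it has near-identical copies and reads that map to several places were not counted, so its level in any of the libraries is uncertain.

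**Figure D2:**
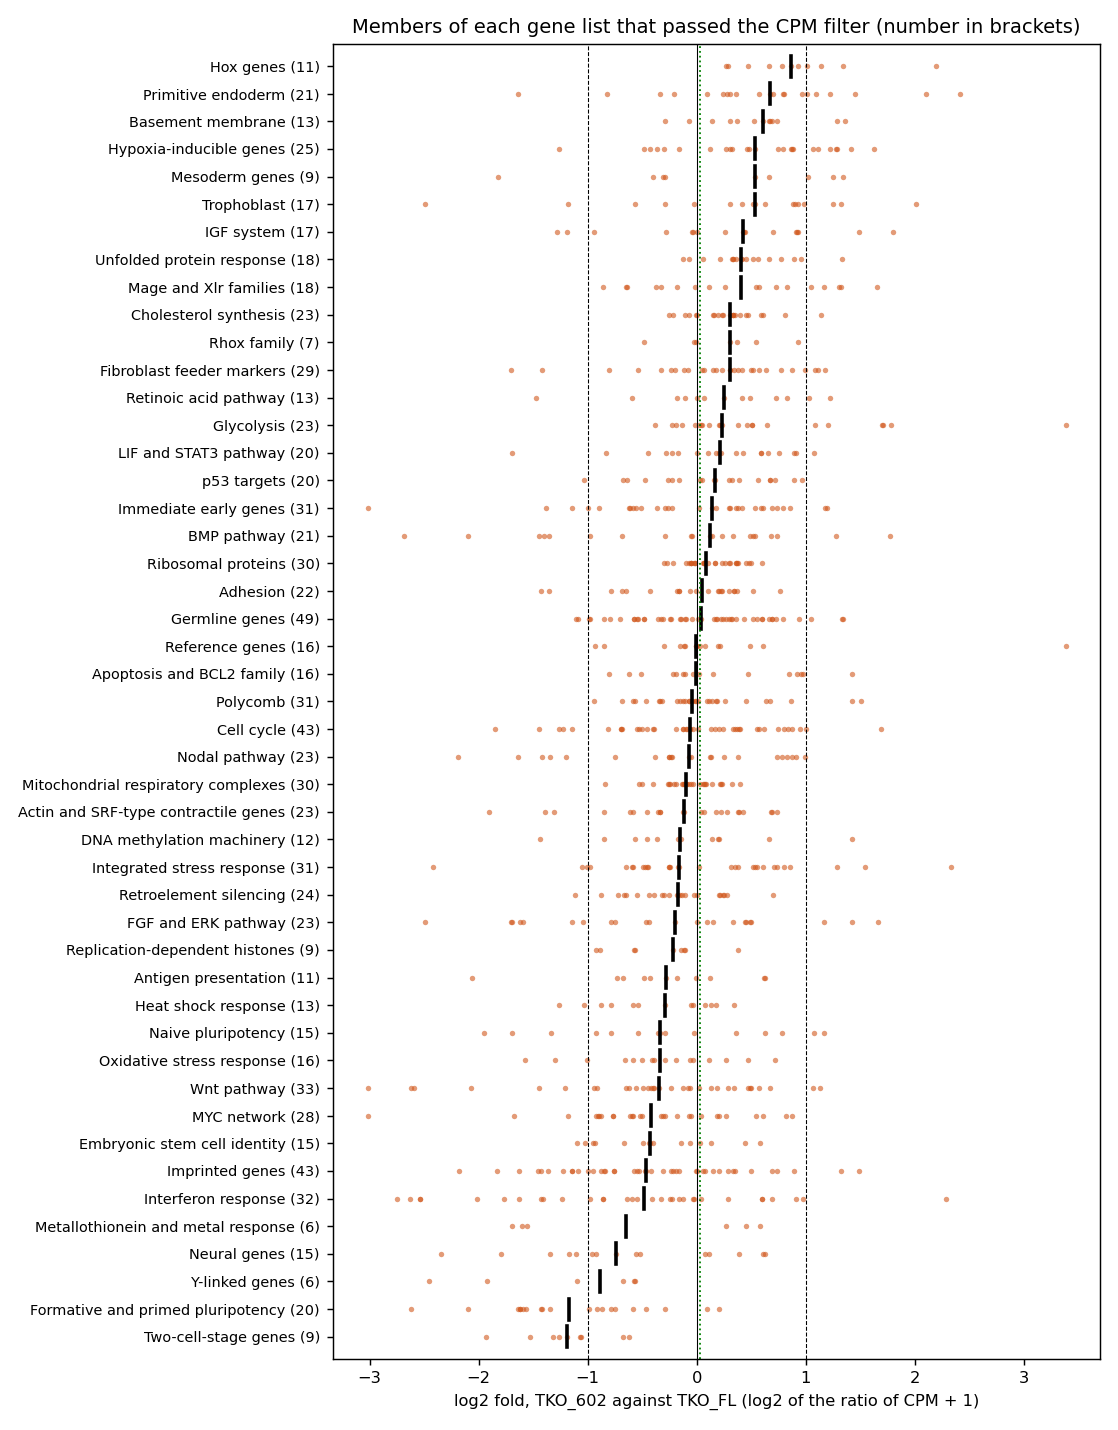
Each row is a gene list and each point a member that passed the CPM filter, at its log2 fold between TKO_602 and TKO_FL, and black bars are list medians. The dotted green line is the median of all genes (0.03) and the dashed lines mark 2-fold; lists with 5 or more such members are shown, from 2-cell-stage genes at the bottom to Hox genes at the top, lists whose members passed mostly through 1 library.

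Wnt signalling works through beta-catenin, which joins TCF and LEF factors on target genes that include feedback inhibitors of the pathway. Of 33 Wnt pathway genes that passed, 6 were at least 2-fold lower in TKO_602 and 2 higher, with a median log2 fold of -0.35 (all genes: 0.03, with 4.87% lower and 6.75% higher). Of the 33, 3 reached 1 CPM in TKO_FL alone, Wnt8a and Sp5 among them, and Rnf43 in TKO_602 alone, so these had to differ. Among the 29 that reached it in both libraries 4 were lower and 1 higher. Ligands and receptors were mostly within 2-fold: of 12, only Wnt8a was apart, at 1.72 CPM in TKO_FL and 0.179 in TKO_602. Fzd7 had 139 and 94.1 CPM and Lrp6 105 and 106 CPM. Ctnnb1, the gene of beta-catenin, had 874 and 639 CPM. Among the nuclear factors Lef1 stood alone, with 50.9, 42.4 and 6.07 CPM in TKO, TKO_FL and TKO_602 (log2 fold -2.62, interval -3.10 to -2.52). Tcf7l1, a repressor of the same family, had 76.5 and 39.2 CPM, and Tcf7 had 95.5 and 133 CPM, so the family members lay on both sides of 0. Of 12 target and feedback genes 4 were lower and 2 higher, and of the 10 with at least 1 CPM in both libraries 3 and 1. Notum, a secreted enzyme that inactivates Wnt ligands, had 46.9, 41.2 and 5.98 CPM in TKO, TKO_FL and TKO_602. Sp5, a transcription factor gene and direct Wnt target, had 7.77, 6.40 and 0.759 CPM, and cyclin D1 (Ccnd1) had 150, 98.7 and 35.6 CPM. In these 3 genes TKO was highest and TKO_602 lowest, and TKO and TKO_FL were closer to each other for Notum and Sp5 than for Ccnd1. Axin2, the most widely used readout of the pathway, had 14.8 and 7.41 CPM (log2 fold -0.91, within 2-fold). Against this direction went Sfrp1, a secreted Wnt antagonist, with 52.2 and 115 CPM, and Rnf43, a ligase that removes Wnt receptors, which had 0 reads in TKO_FL and 1.09 CPM in TKO_602, at least 3.50-fold higher against a floor of 6 reads.

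The promoter of Sp5 is shown because 5 of the 20 Wnt pathway promoters that could be matched to RefSeq held the TCF/LEF core CTTTGA on either strand and Sp5 held it more than once. Among all 32851 RefSeq promoters, 300 bases long, 16% held it, and among those matched to compared genes 11.6%. The 250 bases before the start of Sp5 (GRCm38.p6, the assembly of mm10, chr2:70474673-70474922, plus strand) are printed 5′ to 3′ with the 2 matches, which begin 204 and 104 bases before the start, in capitals; a match is a description of letters and not evidence of binding.
Sp5: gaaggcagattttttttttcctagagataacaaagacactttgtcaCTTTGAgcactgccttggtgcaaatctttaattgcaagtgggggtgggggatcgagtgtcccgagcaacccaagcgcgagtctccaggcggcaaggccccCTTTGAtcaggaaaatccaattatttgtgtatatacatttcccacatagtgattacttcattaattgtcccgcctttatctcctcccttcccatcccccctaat

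Nodal and activin signal through SMAD2 and SMAD3 and induce their own antagonists, the Lefty proteins. Of 23 genes that passed, 5 were at least 2-fold lower in TKO_602 and 0 higher, and the median of -0.07 was near that of all genes. The ligand gene Inhba, a subunit of activin, had 43.7, 42.2 and 8.46 CPM in TKO, TKO_FL and TKO_602 (log2 fold -2.19), and Gdf3 had 140, 149 and 58.2 CPM. Nodal itself had 80.5, 129 and 76.4 CPM, within 2-fold, and its co-receptor gene Tdgf1 had 727, 754 and 824 CPM. The antagonists Lefty1 (380 and 165 CPM in TKO_FL and TKO_602), Lefty2 (599 and 224 CPM) and Fst (7.38 and 1.70 CPM) were lower. Lefty1 in TKO, at 135 CPM, was below both, so that TKO_FL rather than TKO_602 was the library apart from the parent. The target gene Pmepa1 had the opposite sign within 2-fold, with 20.1 and 40.8 CPM. The receptors and SMAD genes were all within 2-fold.

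BMP signals act through SMAD1 and SMAD5 and are read out by the Id genes, which encode inhibitors of bHLH factors and help to sustain self-renewal in serum. Of 21 genes that passed, 5 were at least 2-fold lower in TKO_602 and 2 higher, beside 4.87% and 6.75% of all genes. The list median was 0.12, with 11 genes above 0 and 10 below. All 4 Id genes were at least 2-fold lower in TKO_602. Id1 had 45.9, 67.4 and 9.66 CPM in TKO, TKO_FL and TKO_602 (log2 fold -2.68, interval -3.03 to -2.58). Id3 had 31.7, 56.8 and 12.5 CPM, Id2 14.7, 21.3 and 7.45 CPM, and Id4 7.05, 17.5 and 6.25 CPM. The order of the 3 libraries was the same in each Id gene, TKO_FL highest and TKO_602 lowest, and for Id4 TKO and TKO_602 were close. Smad6, a feedback inhibitor of the same pathway, was higher with 5.41 and 14.5 CPM. Together 5 of 11 target genes were lower and 1 higher, with a median of -0.98. The receptors and SMAD genes showed no such shift: of 10 ligands, receptors and SMADs 0 were lower, Bmpr1a had 81.7 and 89.8 CPM, Bmp4 had 11.9 and 9.51 CPM, and the ligand gene Bmp7 was higher, with 3.33, 9.05 and 33.2 CPM in TKO, TKO_FL and TKO_602 (log2 fold 1.77).

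FGF4 made by the stem cells acts through FGF receptors and ERK and switches on the feedback genes of the Sprouty and Dusp families. Of 23 genes 7 were lower and 3 higher (median -0.20), and with a pseudocount of 5 CPM 4 and 1. Among the 22 that reached 1 CPM in both libraries 6 were lower and 3 higher. Fgfr2, the receptor used in primitive endoderm and trophoblast, had 13.8, 37.0 and 5.76 CPM in TKO, TKO_FL and TKO_602 (log2 fold -2.49). The main receptor gene of stem cells, Fgfr1, had 103 and 131 CPM, within 2-fold, and Fgfr3 (2.03 and 5.78 CPM) and Fgfr4 (4.32 and 13.3 CPM) were higher. The ligand gene Fgf4 had 217 and 294 CPM, whereas Fgf15 (25 and 7.43 CPM), which marks a primed state, was lower. Fgf5 (2.55 and 0.179 CPM), a further mark of that state, reached 1 CPM in TKO_FL alone and so had to be lower. Among feedback genes Spry4 had 144, 242 and 73.5 CPM in TKO, TKO_FL and TKO_602 (log2 fold -1.70), and Spry2 (80.1 and 38.4 CPM), Dusp5 (38.9 and 17.0 CPM) and the ERK-responsive factor gene Etv1 (14.4 and 3.77 CPM) were also lower. Dusp6 and Etv5, further ERK-responsive genes, stood at -0.47 and -0.75, within 2-fold. Ier3, an early response gene, went the other way with 6.03 and 21.3 CPM.

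LIF holds the naive state through the kinase JAK1 and STAT3. Of 20 genes of this pathway 1 was higher and 1 lower, with a median of 0.21. Klf4, a naive factor induced by STAT3, had 155, 169 and 356 CPM in TKO, TKO_FL and TKO_602 (log2 fold 1.08), and Gbx2 had 55.3, 29.3 and 8.32 CPM (log2 fold -1.70). The feedback inhibitor gene Socs3 had 165 and 249 CPM and the receptor gene Lifr 89.2 and 151 CPM, both within 2-fold. The retinoic acid pathway had 2 of 13 genes higher, the carrier genes Rbp4 (2.70 and 7.65 CPM) and Crabp2 (7.70 and 16.7 CPM), and 1 lower, the synthetic enzyme gene Aldh1a2 (6.81 and 1.81 CPM).

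**Figure D3:**
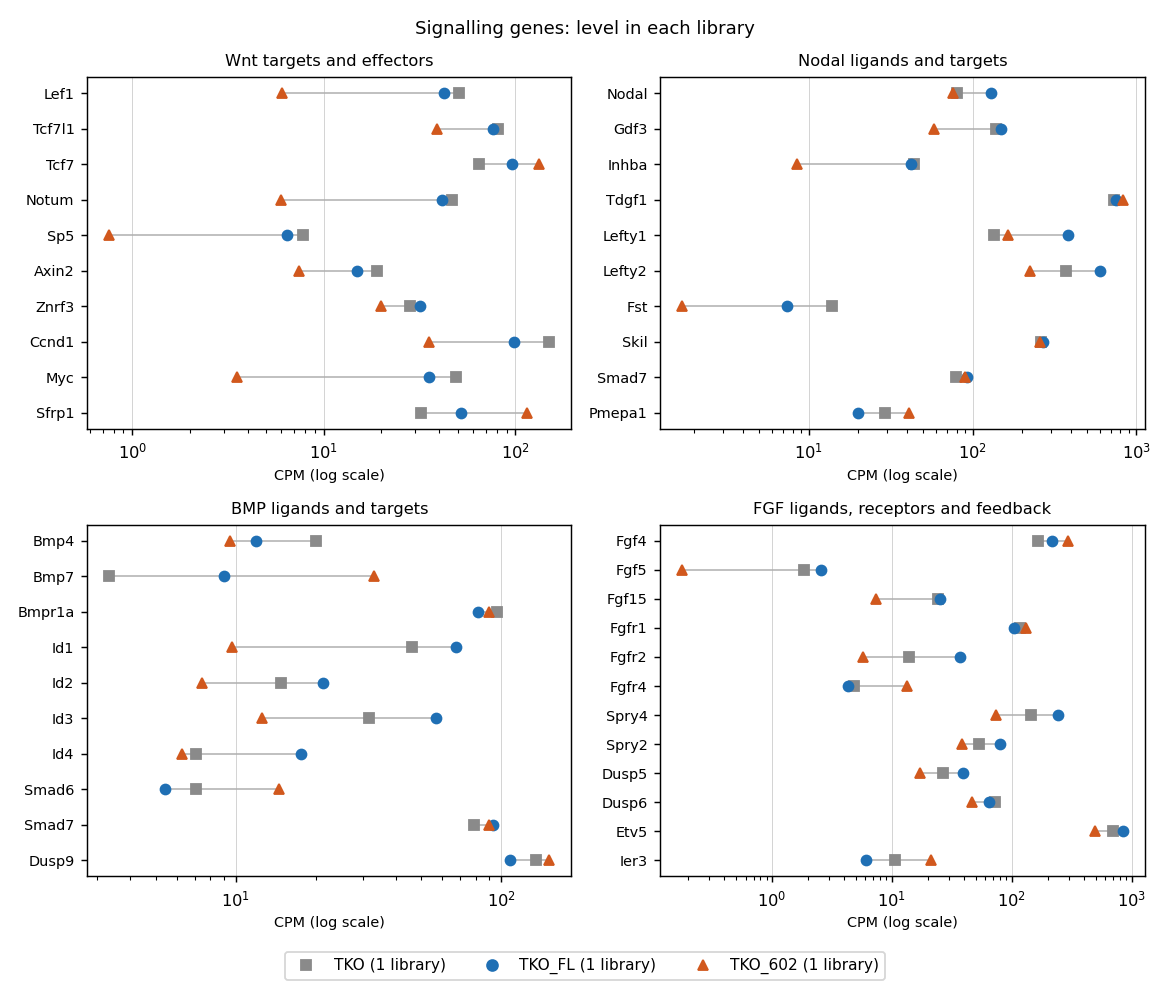
CPM on a log scale for genes of 4 signalling pathways in TKO (grey squares), TKO_FL (blue circles) and TKO_602 (orange triangles), 1 library each. Lef1, Notum, Sp5, Myc, Inhba, Id1 to Id4 and Spry4 have TKO_602 lowest while Bmp7, Sfrp1 and Fgfr4 have it highest; positions compare libraries within a gene, not genes.

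The signalling differences sat beside differences in pluripotency genes. Of 20 formative and primed genes 10 were lower in TKO_602 and 0 higher, beside 4.87% lower and 6.75% higher of all genes. Of the 20, 18 lay below 0, with a median of -1.17. With a pseudocount of 5 CPM 8 were lower and 0 higher (median -0.80). Fgf5 passed through TKO_FL alone and so had to be lower. Among the 19 that reached 1 CPM in both libraries 9 were lower and 0 higher. Foxd3, a factor of the exit from the naive state, had 64.9, 52.6 and 11.6 CPM in TKO, TKO_FL and TKO_602, Otx2 had 50.1, 43.9 and 14.2 CPM, and Zic5 28.8, 47.9 and 14.9 CPM. The adhesion gene Cdh2, N-cadherin, was lower as well (10.6 and 3.30 CPM), while E-cadherin (Cdh1) had 543 and 622 CPM. Naive genes went both ways, with 3 of 15 lower and 2 higher. Nr0b1 had 204 and 52.0 CPM and Spic 11.1 and 3.79 CPM, while Tbx3, with Klf4, was higher (49.4 and 112 CPM). Of 15 core identity genes 13 were within 2-fold and 0 higher, 11 lay below 0 and 4 above, beside the median of -0.15 in the most abundant level group. Zfp42 (1200.3 and 589 CPM) and Dppa2 (161 and 74.3 CPM) were 2-fold lower. Pou5f1 had 1290 and 1169 CPM, Sox2 577 and 590 CPM and Nanog 683 and 518 CPM, none of them 2-fold apart.

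Genes of other lineages differed by lineage. Neural genes were lower or within 2-fold: 5 of 15 were lower and 0 higher (median -0.75), and with a pseudocount of 5 CPM 3 and 0. The neuronal tubulin gene Tubb3 had 91.6, 78.2 and 14.6 CPM in TKO, TKO_FL and TKO_602 (log2 fold -2.34), Map2 had 13.5, 19.2 and 4.84 CPM, and the neurofilament gene Nefl had 77.7, 40.5 and 15.3 CPM. Of 21 primitive endoderm genes 6 were higher and 1 lower (median 0.67), and with a pseudocount of 5 CPM 2 were higher and 0 lower. Not all members shared a direction: the defining factor gene Sox7 had 8.35, 1.92 and 0.647 CPM in TKO, TKO_FL and TKO_602, and Fst was the lower member. Sox7 reached 1 CPM in TKO_FL alone and so had to be lower. For Gata6, Gata4 and Pth1r the parent library was above both. Gata6 had 21.7, 1.56 and 10.0 CPM in TKO, TKO_FL and TKO_602, Gata4 35.2, 4.84 and 10.8 CPM, and the parathyroid hormone receptor gene Pth1r 20.8, 1.66 and 13.2 CPM. The endocytosis genes Cubn (165, 13.4 and 23.8 CPM) and Dab2 (97.8, 13.5 and 14.5 CPM) had the same order or were equal between both libraries, within 2-fold. The basement membrane genes made by this lineage followed, with Col4a1 at 609, 86.7 and 224 CPM and Col4a2 at 297, 48.9 and 120 CPM, the 2 of 13 beyond 2-fold. Feeder fibroblasts make collagen IV as well, and their 10 markers summed, as given above, to 255 CPM in TKO_FL and 407 CPM in TKO_602. In the longer feeder list of 30 genes the 29 that passed summed to 2531 and 2872 CPM. The part of feeders in the collagen values was not tested.

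Among the remaining lineage lists, trophoblast had 3 of 17 genes higher and 2 lower. The keratin gene Krt7 had 1.98 CPM in TKO_FL and 11 in TKO_602, Ascl2 1.98 and 6.43 CPM and Elf3 31.6 and 76.6 CPM, while Tfap2c had 133 and 58.0 CPM. In TKO, Tfap2c had 27.5 CPM, so TKO_FL was the highest of the 3. Of 18 mesoderm genes only 4 had at least 1 CPM in both libraries, and Pecam1, a surface protein of endothelium and of stem cells, was the 1 of these 4 that was higher, with 89.5 and 228 CPM. Other members passed 2-fold but reached 1 CPM in a single library and had to differ: Nkx2-5 had 0.468 and 2.48 CPM, Gsc 0.364 and 1.76 CPM, and the VEGF receptor gene Kdr 6.03 and 0.982 CPM. Of 36 Hox genes 25 were under the filter, and 6 of the 11 that passed did so through TKO_602 alone, where such genes had to be higher, so their direction as a group is not read. The 11 that passed summed to 18.4, 10.5 and 30.8 CPM in TKO, TKO_FL and TKO_602, sums that the filter tilts towards TKO_602. Of the 5 Hox genes with at least 1 CPM in both libraries Hoxc13 (1.20 and 9.01 CPM) and Hoxd9 (1.25 and 4.69 CPM) were at least 2-fold higher and 3 were within 2-fold, and with a pseudocount of 5 CPM 1 Hox gene was.

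MYC and MYCN drive ribosome assembly and growth in stem cells. Myc (chromosome 15, 61985341 to 61990361) had 48.7, 35.5 and 3.50 CPM in TKO, TKO_FL and TKO_602, a 10.1-fold lower level (log2 fold -3.02, interval -3.71 to -2.98). Mycn had 288, 430 and 189 CPM (log2 fold -1.18). Per kilobase of exon, Myc stood at 14.8 CPM in TKO_FL and 1.46 in TKO_602. Their partner gene Max was within 2-fold at 88.7 and 71.5 CPM, and the antagonist gene Mxi1 had 42.1 and 77.8 CPM. Of 15 target genes in ribosome assembly and metabolism 12 lay below 0, but Odc1 alone passed 2-fold. Odc1, the first enzyme of polyamine synthesis, had 1003, 770 and 240 CPM in TKO, TKO_FL and TKO_602 (log2 fold -1.68, interval -1.74 to -1.63). The nucleolar genes Ncl (3391 and 1808 CPM), Bop1 (127 and 68.9 CPM) and Npm1 (4241 and 2494 CPM) were lower within 2-fold, with log2 folds of -0.91, -0.88 and -0.77. The median of these targets was -0.61, beside a median of -0.15 for all genes in the most abundant of the 10 level groups. Ribosomal protein genes did not share this: 0 of 30 were 2-fold apart and their median was 0.09.

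Glycolysis turns glucose into pyruvate and hypoxia-inducible factors raise several of its genes together with those of vessel growth and acid balance. Of 23 glycolysis genes 6 were higher in TKO_602 and 0 lower, beside 6.75% of all genes. Hexokinase 1 (Hk1) had 49.6, 89.0 and 291 CPM in TKO, TKO_FL and TKO_602 (log2 fold 1.70, interval 1.61 to 1.81), and Hk2 had 238, 162 and 374 CPM. Pfkfb3, which makes the activator of phosphofructokinase, had 52.4, 24.6 and 87.2 CPM (log2 fold 1.78). The isozyme genes Eno2 (2.81 and 11.4 CPM in TKO_FL and TKO_602) and Aldoc (41.3 and 89.0 CPM) were higher, and Gapdh, uncertain as said, is the sixth. Other enzyme and transporter genes were within 2-fold. Pkm had 4351 and 3951 CPM, Eno1 1899.5 and 1664 CPM, Ldha 1417 and 1452 CPM and the glucose transporter gene Slc2a1 707 and 542 CPM. The list median was 0.23, and mitochondrial respiratory genes had 0 of 30 members 2-fold apart and a median of -0.10.

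Of 25 hypoxia-inducible genes 7 were higher and 1 lower, with a median of 0.54 and 19 above 0. Car9, a carbonic anhydrase at the cell surface, had 0.772, 2.13 and 8.66 CPM in TKO, TKO_FL and TKO_602 (log2 fold 1.62, interval 1.36 to 2.76). Vegfa, the vessel growth factor, had 29.1, 34.8 and 85.8 CPM, and Adm, adrenomedullin, 2.22, 1.46 and 5.53 CPM. The collagen prolyl hydroxylase genes P4ha1 (97.9 and 213 CPM) and P4ha2 (21.3 and 51.0 CPM), the mTOR inhibitor gene Ddit4 (54.2 and 134 CPM) and Egln3, an oxygen-sensing hydroxylase gene (50.9 and 107 CPM), completed the higher set. In all 7 genes TKO_602 was the highest of the 3 libraries. Hif1a itself had 205, 181 and 162 CPM in TKO, TKO_FL and TKO_602, Pdk1 had 316, 364 and 282 CPM, and Kdm3a, a histone demethylase gene of the same list, was lower with 303, 286 and 119 CPM. The HIF core ACGTG, which overlaps the MYC E-box CACGTG wherever that occurs, was found on either strand in 11 of 20 matched promoters of this list and in 5 of the 7 higher members. Of all promoters 19.6% held it, and of those matched to compared genes 25.7%. The 250 bases before the start of Car9, the higher member with the largest difference (GRCm38.p6, chr4:43506776-43507025, plus strand), hold 1 match, in capitals, which begins 18 bases before the start and reads ACGTG on the other strand.
Car9: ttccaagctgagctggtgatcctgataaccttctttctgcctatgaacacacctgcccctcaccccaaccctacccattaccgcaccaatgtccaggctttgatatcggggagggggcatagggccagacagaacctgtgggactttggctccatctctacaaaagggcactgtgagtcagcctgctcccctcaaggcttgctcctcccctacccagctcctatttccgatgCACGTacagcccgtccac

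**Figure D4:**
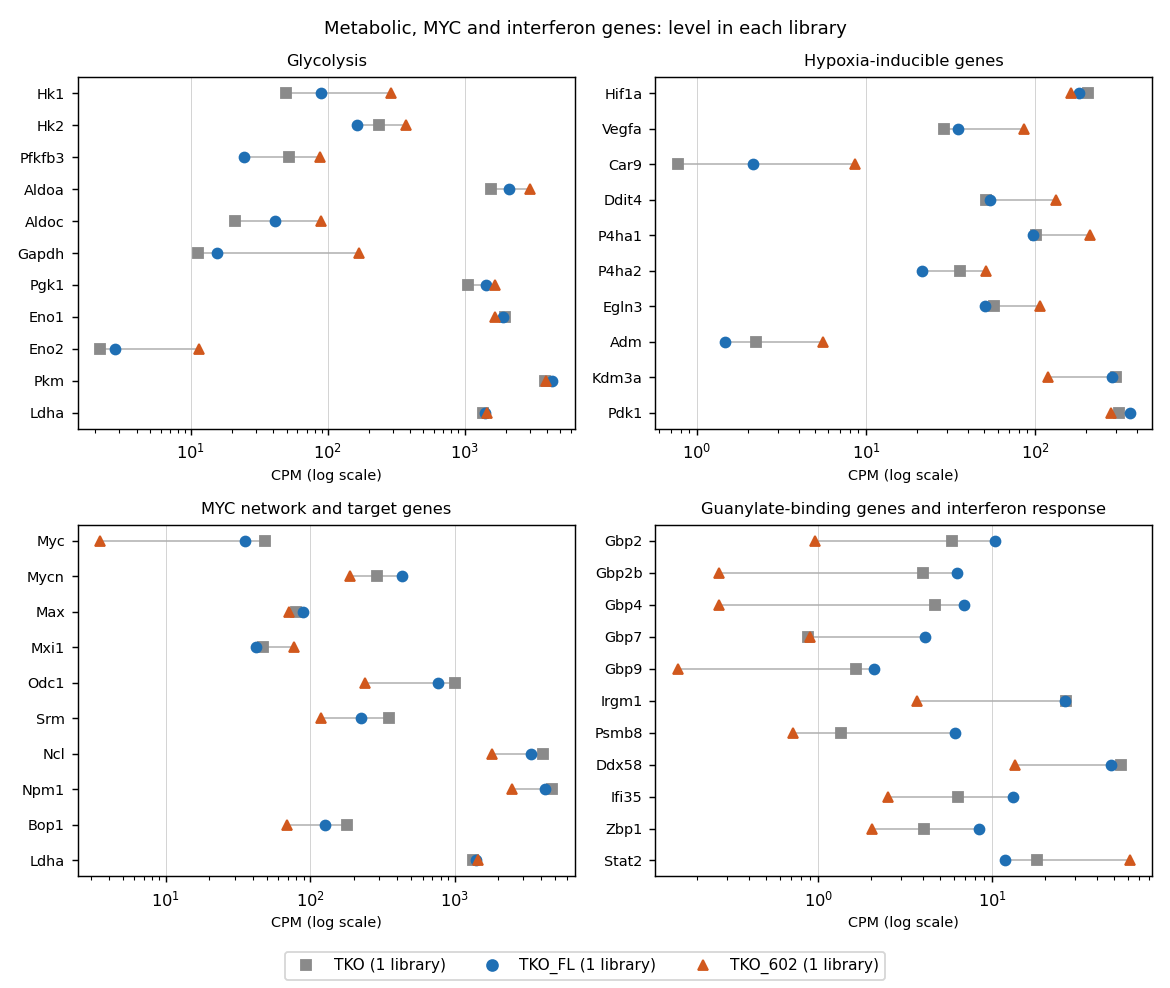
CPM on a log scale in TKO (grey squares), TKO_FL (blue circles) and TKO_602 (orange triangles), 1 library each, for glycolysis, hypoxia-inducible, MYC network and interferon-response genes. TKO_602 is highest for Hk1, Pfkfb3, Car9, Vegfa and Stat2 and lowest for Myc, Odc1, Gbp2, Gbp4 and Irgm1, and Gbp3, at 0 reads in TKO_602, is not drawn.

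Interferons switch on antiviral and antimicrobial genes through a factor that contains STAT2 and IRF9. Of 32 interferon-response genes that passed, 10 were lower in TKO_602 and 1 higher, and with a pseudocount of 5 CPM 6 and 1. Of the 32, 8 reached 1 CPM in TKO_FL alone and so had to be lower; among the 23 that reached it in both libraries 5 were lower and 1 higher. The guanylate-binding and immunity-related GTPases, which attack vacuoles of intracellular pathogens, held 6 of the 10, Gbp2, Gbp3, Gbp4, Gbp7, Gbp9 and Irgm1, of which only Irgm1 reached 1 CPM in both libraries. Gbp2 had 5.84, 10.3 and 0.959 CPM in TKO, TKO_FL and TKO_602. Gbp4 had 4.68, 6.86 and 0.268 CPM. Gbp3 had 68 reads in TKO, 110 in TKO_FL and 0 in TKO_602, at least 42.7-fold lower in TKO_602 than in TKO_FL against a floor of 6 reads, and was the only gene with at least 5 CPM in one library and 0 reads in the other. The members lie in clusters on chromosomes 3 and 5. On chromosome 3 the 4 Gbp genes that passed, Gbp2b included, did so through TKO_FL alone and so had to be lower. The cluster summed to 26.5 CPM in TKO_FL and 2.12 in TKO_602. On chromosome 5 the same held for both that passed, and the sums were 9.15 and 0.424 CPM. The Gbp genes are paralogs, and reads shared among them were not counted. Irgm1, on chromosome 11, had 26.4, 26.3 and 3.70 CPM in TKO, TKO_FL and TKO_602 (log2 fold -2.54, interval -3.20 to -2.47). Its relatives Igtp (1.98 and 4.60 CPM) and Irgm2 (1.30 and 2.48 CPM) had the opposite sign, within 2-fold.

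Elsewhere in the response the RNA sensor gene Ddx58 had 55.1, 48.4 and 13.5 CPM in TKO, TKO_FL and TKO_602. Zbp1, a sensor of Z-form nucleic acid, had 4.06, 8.37 and 2.03 CPM, Ifi35 6.37, 13.2 and 2.52 CPM, and Oasl2 1.83, 4.63 and 1.38 CPM. The immunoproteasome subunit gene Psmb8, from the antigen presentation list, had 1.35, 6.14 and 0.714 CPM and was the 1 of 11 genes there beyond 2-fold. Psmb8 passed through TKO_FL alone and so had to be lower. Of the 9 genes of that list with at least 1 CPM in both libraries 0 were 2-fold apart. For Psmb8, Ifi35, Zbp1 and Oasl2 TKO_FL was the highest of the 3 libraries. Stat2, which joins IRF9 in the factor that interferon activates, was the exception in direction, with 18, 11.9 and 61.8 CPM in TKO, TKO_FL and TKO_602 (log2 fold 2.28, interval 2.10 to 2.66). Its partner Irf9 (11.2 and 13.9 CPM) was within 2-fold. Of the listed genes 13 were under the filter, among them the widely used markers Isg15, Mx1, Irf7 and Usp18.

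The interferon-stimulated response element was searched on both strands as a GAAA, any 2 bases and a further GAAA, a motif added after the values were seen. It was in 16 of 26 matched promoters of the interferon list, in 5 of the 7 matched lower members and in the higher Stat2. Of all promoters 3.44% held it, and of those matched to compared genes 2.8%. Thus members with the element were found on both sides. The 250 bases before the starts of Gbp2 (GRCm38.p6, chr3:142620413-142620662, plus strand), Gbp3 (chr3:142559794-142560043, plus strand) and Irgm1 (chr11:48871421-48871670, minus strand) are shown, since these are lower members whose matches lie close to the start: 59 bases before it in Gbp2, 45 and 39 in Gbp3, and 30 and 24 in Irgm1. Capitals mark the matches, which overlap in Gbp3 and Irgm1.
Gbp2: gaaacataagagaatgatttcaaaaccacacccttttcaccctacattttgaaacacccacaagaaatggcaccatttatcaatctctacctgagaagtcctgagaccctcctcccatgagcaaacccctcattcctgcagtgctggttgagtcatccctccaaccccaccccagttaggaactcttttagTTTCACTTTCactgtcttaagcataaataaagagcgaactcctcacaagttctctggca
Gbp3: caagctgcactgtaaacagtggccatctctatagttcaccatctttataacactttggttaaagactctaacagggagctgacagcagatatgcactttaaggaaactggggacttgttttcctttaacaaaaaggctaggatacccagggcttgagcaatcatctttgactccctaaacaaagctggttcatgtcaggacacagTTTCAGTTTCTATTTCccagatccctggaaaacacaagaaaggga
Irgm1: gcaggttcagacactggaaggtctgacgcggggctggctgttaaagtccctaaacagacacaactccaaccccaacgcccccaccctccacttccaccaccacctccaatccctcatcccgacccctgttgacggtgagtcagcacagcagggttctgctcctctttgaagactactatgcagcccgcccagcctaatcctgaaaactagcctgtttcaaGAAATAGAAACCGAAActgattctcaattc

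Stress pathways did not move as a block. In the integrated stress response, in which ATF4 raises amino acid supply, regulators and effectors were split: of 14 regulator genes 3 were higher and 1 lower (median 0.63), and of 17 enzyme and transporter genes 0 were higher and 2 lower (median -0.26). Gdf15, a secreted stress hormone, had 2.22, 3.59 and 22.1 CPM in TKO, TKO_FL and TKO_602 (log2 fold 2.33), Nupr1 3.38, 4.32 and 14.5 CPM, and Atf4 97.9, 101 and 144 CPM. The regulator gene Atf5 was lower, with 25 CPM in TKO_FL and 11.5 in TKO_602. Slc7a3, a transporter of arginine and lysine, had 175, 138 and 24.9 CPM (log2 fold -2.42, interval -2.61 to -2.32), and Slc7a11, the cystine transporter gene, 9.70, 10.2 and 4.55 CPM. Asns, a common readout of ATF4, had 236 and 197 CPM, within 2-fold.

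Genes of the unfolded protein response in the endoplasmic reticulum leaned up within narrow bounds, 16 of 18 above 0 with a median of 0.41. Sdf2l1 was the only one 2-fold higher (15.8 and 41.2 CPM), Hsp90b1 had 806 and 1492 CPM and Hspa5 679 and 870 CPM. Of 13 cytosolic and mitochondrial chaperone genes 9 lay below 0. Hsph1 (245 and 102 CPM) and the mitochondrial Hspd1 (1411 and 690 CPM) were at least 2-fold lower, and Hspa8 had 3465 and 2014 CPM (log2 fold -0.78). The heat shock factor gene Hsf1 had 36.3 and 35.3 CPM. NRF2 targets of the oxidative stress response had 3 of 16 lower and 0 higher (median -0.34). Heme oxygenase 1 (Hmox1) had 208, 204 and 68.0 CPM in TKO, TKO_FL and TKO_602, and sulfiredoxin (Srxn1) 59.0, 49.3 and 19.4 CPM.

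Metallothioneins bind zinc and copper and are raised by the metal sensor MTF1, as is the zinc exporter gene Slc30a1. All 3 were lower: Mt2 had 405, 464 and 142 CPM in TKO, TKO_FL and TKO_602 (log2 fold -1.70, interval -1.77 to -1.64), Mt1 215, 295 and 99.7 CPM, and Slc30a1 25.5, 86.1 and 27.7 CPM. For Slc30a1 TKO and TKO_602 were close and TKO_FL stood apart. Mtf1 itself had 29.7 and 36.0 CPM, and the zinc importer genes Slc39a4 (35.1 and 52.8 CPM) and Slc39a10 (77.9 and 107 CPM) had the opposite sign within 2-fold.

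Cholesterol synthesis genes, under the control of SREBP2, had 18 of 23 members above 0, with a median of 0.30 and Msmo1 as the only one 2-fold higher (98.2 and 218 CPM). Srebf2, the gene of SREBP2, had 345 and 471 CPM. Immediate early genes split: Fos (76.1, 159 and 364 CPM in TKO, TKO_FL and TKO_602) and Egr1 (145, 194 and 438 CPM) were higher, while Egr3 (4.63 and 1.16 CPM), Dusp5 and Myc were lower, and the list median was 0.14. Target genes of p53 had 0 of 20 members higher and 1 lower, Trp53 itself with 542 CPM in TKO_FL and 265 in TKO_602 (log2 fold -1.03). Cdkn1a, the best known of its targets, had 120 and 134 CPM. In the BCL2 family Bmf, which encodes a death-promoting member, had 22.7 and 62.5 CPM and was the 1 of 16 genes beyond 2-fold.

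Cyclins and their kinases carry cells from G1 into S phase, and cyclin-dependent kinase inhibitors hold them back. Of 21 regulators of G1, 4 were lower, Ccnd1, Ccnd2 (44.2 and 19.5 CPM), Cdk6 (49.5 and 20.6 CPM) and E2f3 (84.2 and 34.4 CPM), and 2 were higher, the inhibitor genes Cdkn2c (1.82 and 8.08 CPM) and Cdkn1b (22.9 and 46.9 CPM). Cdkn1b lay at the threshold with a log2 fold of 1.00. Of 22 genes of S phase and mitosis only Tyms, thymidylate synthase, was apart, with 98.6, 84.2 and 22.7 CPM in TKO, TKO_FL and TKO_602 (log2 fold -1.85). Pcna had 330 and 204 CPM, while the mitotic genes Top2a (1209.7 and 2107 CPM) and Mki67 (285 and 510 CPM) had the opposite sign, all within 2-fold.

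Actin and its partners are targets of SRF, which binds the CArG box. Of 23 genes of this list 3 were lower and 0 higher. The cytoplasmic actin gene Actg1 had 2149, 2009 and 766 CPM in TKO, TKO_FL and TKO_602 (log2 fold -1.39, interval -1.42 to -1.36), the myosin light chain gene Myl9 23.2, 15.8 and 3.48 CPM, and the calponin gene Cnn2 131, 125 and 49.5 CPM. Actb had 2857 and 1587 CPM (log2 fold -0.85), and the smooth muscle genes Acta2 (18.5 and 17.0 CPM) and Tagln (23.3 and 26.5 CPM), which feeders also make, differed little. Actg1 and Actb have near-identical copies and pseudogenes, so their levels are uncertain. A CArG box was in 6 of 19 matched promoters of the list, and in all 3 lower members, beside 1.63% of all promoters and 1.33% of those matched to compared genes. It is shown, in capitals, for Actg1 (GRCm38.p6, chr11:120348496-120348745, minus strand), where it begins 90 bases before the start, and for Myl9 (chr2:156775214-156775463, plus strand), where it begins 161 bases before the start. The SRF-responsive Fos and Egr1 lay on the other side, as given above, and Srf had 148 and 96.3 CPM.
Actg1: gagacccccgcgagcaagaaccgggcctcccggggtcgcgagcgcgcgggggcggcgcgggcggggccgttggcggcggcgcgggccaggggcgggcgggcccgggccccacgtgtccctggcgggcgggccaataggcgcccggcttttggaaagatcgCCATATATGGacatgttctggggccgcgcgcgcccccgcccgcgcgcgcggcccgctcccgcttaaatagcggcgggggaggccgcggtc
Myl9: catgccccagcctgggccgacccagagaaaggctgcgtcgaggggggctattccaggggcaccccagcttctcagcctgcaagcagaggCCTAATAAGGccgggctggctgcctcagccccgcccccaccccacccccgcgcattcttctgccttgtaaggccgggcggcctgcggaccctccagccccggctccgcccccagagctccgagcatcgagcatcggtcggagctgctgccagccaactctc

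Gene groups known to be held by DNA methylation did not share a direction between the libraries with high Dnmt1. Germline genes had 3 of 49 higher and 2 lower (median 0.04), shares near those of all genes (6.75% and 4.87%), so that nothing is read from the count. Of the single genes, the meiotic gene Meiob had 0.772, 7.44 and 20.3 CPM in TKO, TKO_FL and TKO_602, Dpep3 had 2.61, 5.82 and 16.3 CPM and Pld6 6.04, 6.14 and 13.8 CPM, while Tex11 had 9.75, 14 and 5.94 CPM and Slc25a31 5.31, 6.24 and 2.41 CPM. Imprinted genes had 10 of 43 lower and 2 higher (median -0.47), beside 4.87% and 6.75% of all genes. With a pseudocount of 5 CPM 7 were lower and 1 higher (median -0.21). Of the 43, 4 passed through TKO_FL alone and so had to be lower. Among the 39 with at least 1 CPM in both libraries 8 were lower and 2 higher. The lower ones of these were 4 of 18 maternally and 4 of 21 paternally expressed genes. Peg10, a gene derived from a retrotransposon, had 694, 520 and 114 CPM in TKO, TKO_FL and TKO_602 (log2 fold -2.18, interval -2.26 to -2.12), and Mest had 207, 135 and 48.4 CPM. The noncoding RNA genes Rian (425, 496 and 160 CPM), Mirg (22.6, 17.9 and 4.31 CPM) and Meg3 (203, 220 and 103 CPM), which neighbour each other on chromosome 12, were lower together, while Dlk1, of the same domain, was within 2-fold at 16.1 CPM in TKO_FL and 10.7 in TKO_602. Igf2 was higher (16.2, 11.6 and 34.4 CPM) and its reciprocal neighbour H19 was within 2-fold (180, 131 and 146 CPM).

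Genes of the 2-cell embryo are switched on by a small share of stem cells at a time. Of 22 such genes 13 were under the filter, and 8 of the 9 that passed did so through TKO_FL alone, where they had to be higher, so their direction as a group is not read. At least 2-fold lower in TKO_602 were 7, and 0 with a pseudocount of 5 CPM. Tmem92, the farthest, had 4.44, 4.26 and 0.379 CPM in TKO, TKO_FL and TKO_602, Dux had 1.01, 2.44 and 0.513 CPM, and Zscan4d had 0 reads in TKO_602, at least 8.16-fold lower against the floor. All but Eif1a were below 5 CPM in every library, and several have near-identical copies, so their counts are uncertain. Of 18 X-linked Mage and Xlr genes 5 were higher and 0 lower (2 and 0 with a pseudocount of 5 CPM), and all 5 were Xlr genes: Xlr3c had 15.9, 17.7 and 57.6 CPM, Xlr3a 24.9, 38 and 86.8 CPM, and Xlr4a, Xlr4c and Xlr5a also passed 2-fold. These genes are near-identical copies and likewise uncertain. The Rhox genes had 0 of 7 beyond 2-fold. Silencing factors differed little: of 24 only Zfp57, which guards imprints, was apart, with 247, 170 and 77.7 CPM in TKO, TKO_FL and TKO_602, and Trim28 had 1753 and 1101 CPM.

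The IGF system, which carries growth signals and is in part imprinted, had 2 of 17 genes higher and 2 lower. Igfbp4, a secreted binding protein, had 14.3, 58.1 and 204 CPM in TKO, TKO_FL and TKO_602 (log2 fold 1.79), in which each step was in the same direction, and Igf2 was the other higher gene. The binding protein genes Igfbp3 (43.4 and 17.3 CPM) and Igfbp5 (5.25 and 1.74 CPM) were lower. Adhesion genes had 2 of 22 lower, Cdh2 and plakoglobin (Jup, 273 and 106 CPM), and 0 higher. Reference genes other than Gapdh were within 2-fold, with a list median of -0.005: Tbp had 40.6 and 41.4 CPM and Hprt 151 and 150 CPM, but Ppia (log2 fold -0.93) and Actb were lower by nearly that margin.

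Along the genome the medians of the autosomes and X differed little, lying between -0.06 (chromosomes 11 and X) and 0.11 (chromosome 9). The shares 2-fold apart differed more, beside 6.75% higher and 4.87% lower of all genes. On X 3.88% were higher and 8.14% lower, and on chromosome 9 8.05% and 2.47%. The Y chromosome stood apart with a median of -0.72 over 8 genes, 7 of them below 0. Kdm5d, a histone demethylase gene, had 5.41, 11.9 and 1.34 CPM in TKO, TKO_FL and TKO_602 (log2 fold -2.46, interval -3.78 to -2.56), and the deubiquitinase gene Usp9y had 2.41, 4.16 and 0.357 CPM. Eif2s3y, a translation factor gene, had 63.1, 82.7 and 38.1 CPM. The other genes of the male-specific region were lower by less than 2-fold: Ddx3y had 64.2 and 39.9 CPM, Uba1y 8.27 and 4.42 CPM, Zfy1 7.33 and 4.60 CPM and Uty 26.7 and 17.6 CPM. Usp9y (ratio of CPM 0.0858) reached 1 CPM in TKO_FL alone and so had to be lower. Among the other genes of this region the TKO_602 to TKO_FL ratios ranged from 0.113 (Kdm5d) to 0.661 (Uty), an uneven difference along one chromosome. Erdr1, which maps to the pseudoautosomal region shared with X, went the other way with 6.40 and 23.6 CPM. On X, Tsix, the antisense partner of Xist, had 3.07 and 0.602 CPM and Xist 1.40 and 2.79 CPM, and without strand information reads of these overlapping genes cannot be told apart.

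**Figure D5:**
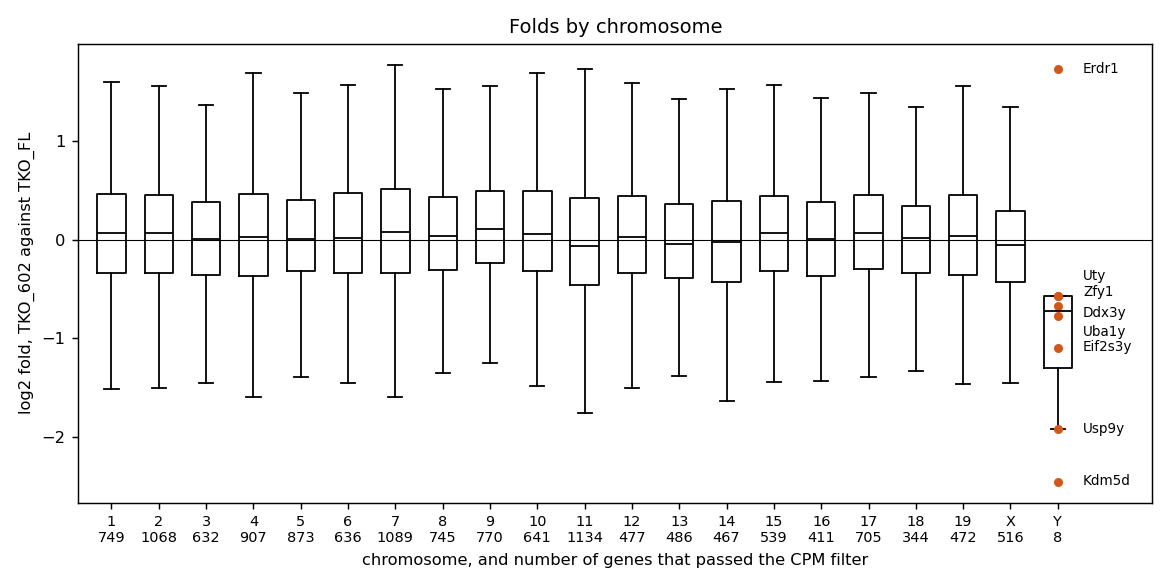
Boxes show the median and quartiles of the log2 fold (TKO_602 against TKO_FL) of the genes on each chromosome, with whiskers to the last gene within 1.5 times the quartile range, and the number of genes below each name. Points are the 8 genes on Y, of which 7 lie below 0.

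Promoters of higher and lower genes were compared with those of genes within 2-fold, for the 10810 genes matched to 1 RefSeq promoter of 300 bases. The median number of CpG sites was 19 in promoters of higher genes, 16 in those of lower genes and 21 in those within 2-fold. The MYC E-box CACGTG was in 6.57% of promoters of higher genes and 13.8% of lower ones, beside 10.6% of those within 2-fold and 7.15% of all promoters of the table. For the HIF core, promoters of higher genes did not hold more matches (21.6%) than those within 2-fold (26.1%), although most higher hypoxia genes did, as given above. The CArG box was in 0.958% of promoters of higher and 2.05% of lower genes, beside 1.32% of those within 2-fold, and the response element of interferon in 2.33%, 3.90% and 2.75%. AP-1 sites (TGANTCA) were in 4.65%, 6.98% and 4.45% and cyclic AMP response elements (TGACGTCA) in 1.64%, 3.08% and 3.31%. The NF-Y box CCAAT was in 41.9%, 35.7% and 39.3%, and in 15 of 16 matched promoters of the unfolded protein response. The ATF4 site TGATGNAA was in 2.46%, 2.87% and 2.14%, and the TCF/LEF core in 11.2%, 14% and 11.5%. No share of a motif is read here as a sign of a factor's activity.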

How the data were processed

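RNA-seq counts of 3 libraries at day 0 were used, 1 each of TKO, TKO_FL and TKO_602, grouped by the genotype in their labels. Per the file headers, the authors deposited counts of reads per RefSeq gene of mm10, made with featureCounts 2.0.6 for paired reads, with each mate counted alone and without options for strand or for reads that map to several places, so the reads of overlapping genes, antisense partners and copies are uncertain. The submitters' processing notes also name Trim Galore, HISAT2 and SAMtools. The other 8 samples and 11 columns of other libraries in the count table were not analysed here.

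Counts were scaled to CPM with TMM factors over the 3 libraries (0.980 for TKO, 0.983 for TKO_FL and 1.04 for TKO_602; edgeR 4.0.16 in R 4.3.3, used for these factors only). Totals were 21133660, 19573689 and 43158441 reads, so that 1 read is worth 0.0483, 0.0520 and 0.0223 CPM. Log2 folds used a pseudocount of 1 CPM and genes with at least 1 CPM in TKO_FL or TKO_602; 2-fold was the threshold. No test was run. Exact 95% Clopper-Pearson intervals used reads divided by 2, and 0 reads were bounded by a floor of 6 reads (3 fragments); both cover counting error only, and PCR duplicates are not removed by them. Python 3.11.15 with numpy 2.4.6, pandas 2.3.3, scipy 1.17.1 and matplotlib 3.10.9 was used, and the fold step was tested on simulated counts.

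The comparison and the 50 gene lists were chosen with earlier results of these data known. The named genes are every measured DNA methylation gene, the 20 largest folds on either side (at least 5 CPM in one library, exonic length of at least 200 bases, no predicted or accession-like symbols), genes with 0 reads in one library, and in each list the members with the 6 largest folds and those that define a role; a few genes under this rule are not reported here, and other genes, such as Mtf1, Srf or Hsf1, and the shown promoters, were chosen after their values were seen. Promoters are the RefSeq promoter table of GRCm38.p6, from 250 bases before to 50 after the start, matched by symbol, chromosome and strand. Alternatives were other pseudocounts, filters and scalings. Groups share no replicates, and no paired fit exists.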

Additional observations from a re-analysis of the deposited data

How the results depend on the processing

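The counts of genes depended on the pseudocount. With 5 CPM in place of 1, 344 genes were at least 2-fold higher and 274 lower, and with 0.1 CPM 1361 were higher and 1023 lower (924 and 667 as reported). Counting only genes whose interval lay wholly beyond 2-fold, an alternative chosen after seeing the data, left 511 higher and 474 lower. Library size alone as scaling gave 1097 higher and 573 lower and moved the median of all genes to 0.11; median-of-ratios factors gave 907 and 684. In none of the 9 alternatives did a gene pass 2-fold in the opposite direction. That outcome was fixed in advance: pseudocounts, filters and intervals keep the sign of a fold, and the scalings shifted all folds only slightly. Of the 200 named or listed genes 2-fold apart, 64 were within 2-fold with a pseudocount of 5, 6 with library size alone and 1 with median-of-ratios factors. A filter of 5 CPM in one library left out 25. With the pseudocount of 5 CPM, 0 members stayed 2-fold apart among cell cycle, retinoic acid and Polycomb genes on the higher side. The same held on the lower side for germline, retinoic acid, antigen presentation, primitive endoderm, 2-cell-stage, mesoderm and X-inactivation genes. With library size alone Trp53 was within 2-fold, and 1 core identity, 1 heat shock and 1 integrated stress response gene stayed lower. The list median of the clustered protocadherins turned from -0.45 over 3 genes to 0.41 over those with at least 5 CPM, where fewer genes were left. List medians near 0 crossed it as well: with library size alone those of the Nodal pathway (0.01), cell cycle (0.02), Polycomb (0.04), reference genes (0.07) and the BCL2 family (0.07). With the filter of 5 CPM those of the BMP pathway (-0.05) and the BCL2 family (0.02) did. No paired analysis was possible because each genotype has 1 library.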
